A study of Mus musculus with 4 samples.

Results

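The cytosolic ribosomal protein genes encode the protein parts of the large (60S) and small (40S) subunits of the ribosome outside mitochondria. They were found by symbol (Rpl or Rps with a number, with Rplp0, Rplp1, Rplp2 and Rpsa), among probe sets that the array's annotation gives to exactly 1 gene, and pseudogene symbols ending in -ps and the Rps6k kinases were left out. This gave 67 genes of 22180 named on the array, 42 of the large and 25 of the small subunit. For a gene with several probe sets the brightest was read. Total RNA of 4 primary mouse tumours was hybridised to 1 Affymetrix array each, and all 4 tumours form 1 group. The label of each gives a mutant Alk, the transgene TH-MYCN and Stat6-/-, on C57BL\6 x 129Sv/J, so there is no control group and no test between conditions. TH-MYCN, a mouse model of neuroblastoma, places human MYCN under the promoter of tyrosine hydroxylase, which is active in the sympathetic lineage. Stat6 was under the background floor defined further on in all 4 tumours (5.83 ± 0.07, SD, n = 4), and Alk ran from 7.73 in tumour 2 to 8.43 in tumour 1. The animals' ages, and whether any tissue was pooled, are not given in the labels. The tumours are not stated to come from separate animals, so the spread between them may be in part technical. Xist, the RNA that coats the silenced X chromosome of female cells, read 10.13 in tumour 4 and 3.89 to 3.95 in the others. By this marker tumour 4 differs in sex from the others and likely came from another animal. Sex cannot be told apart from whatever else sets tumour 4 apart.

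Ribosomal proteins assemble with ribosomal RNA in the nucleolus, and each is needed in about the same number of copies. Their mRNAs are abundant in growing cells and begin with a terminal oligopyrimidine (TOP) tract, through which mTORC1 and LARP1 control their translation together. MYC proteins, MYCN among them, are known activators of ribosome production, and free Rpl5 and Rpl11 bind Mdm2 when assembly fails, which stabilises p53. Nearly all these genes have processed pseudogenes, intronless copies scattered over the genome, which share most of their sequence with the parent gene.

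Signals are the deposited values, read as log2 units. Olfactory and vomeronasal receptor genes (1390 on the array), which are silent outside sensory neurons, served as background. A gene was called detected above the 95th percentile of their means, a floor of 6.17. By this floor 49 of the 67 ribosomal protein genes were detected, 31 of the large and 18 of the small subunit, where 40.5% of all genes were. The detected ones lay high on the array's scale: 28 of them were among the 450 brightest detected genes, a group that held 5.01% of all detected genes. The median of their means was 10.20, against 7.49 over all detected genes. Reading the brightest set raises the level of genes with several sets by construction. Such genes were 25 of the 67, against 1082 of all 22180. A signal also depends on the probes, so this order does not rank transcripts by abundance. Sympathoadrenal markers were detected in 12 of 12 measured. The tissue is labelled sternocleidomastoid muscle, and of 20 skeletal muscle markers only 1 was detected, Eno3 (7.26 ± 0.04, SD, n = 4), an enolase that other tissues also express.

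**Figure D1:**
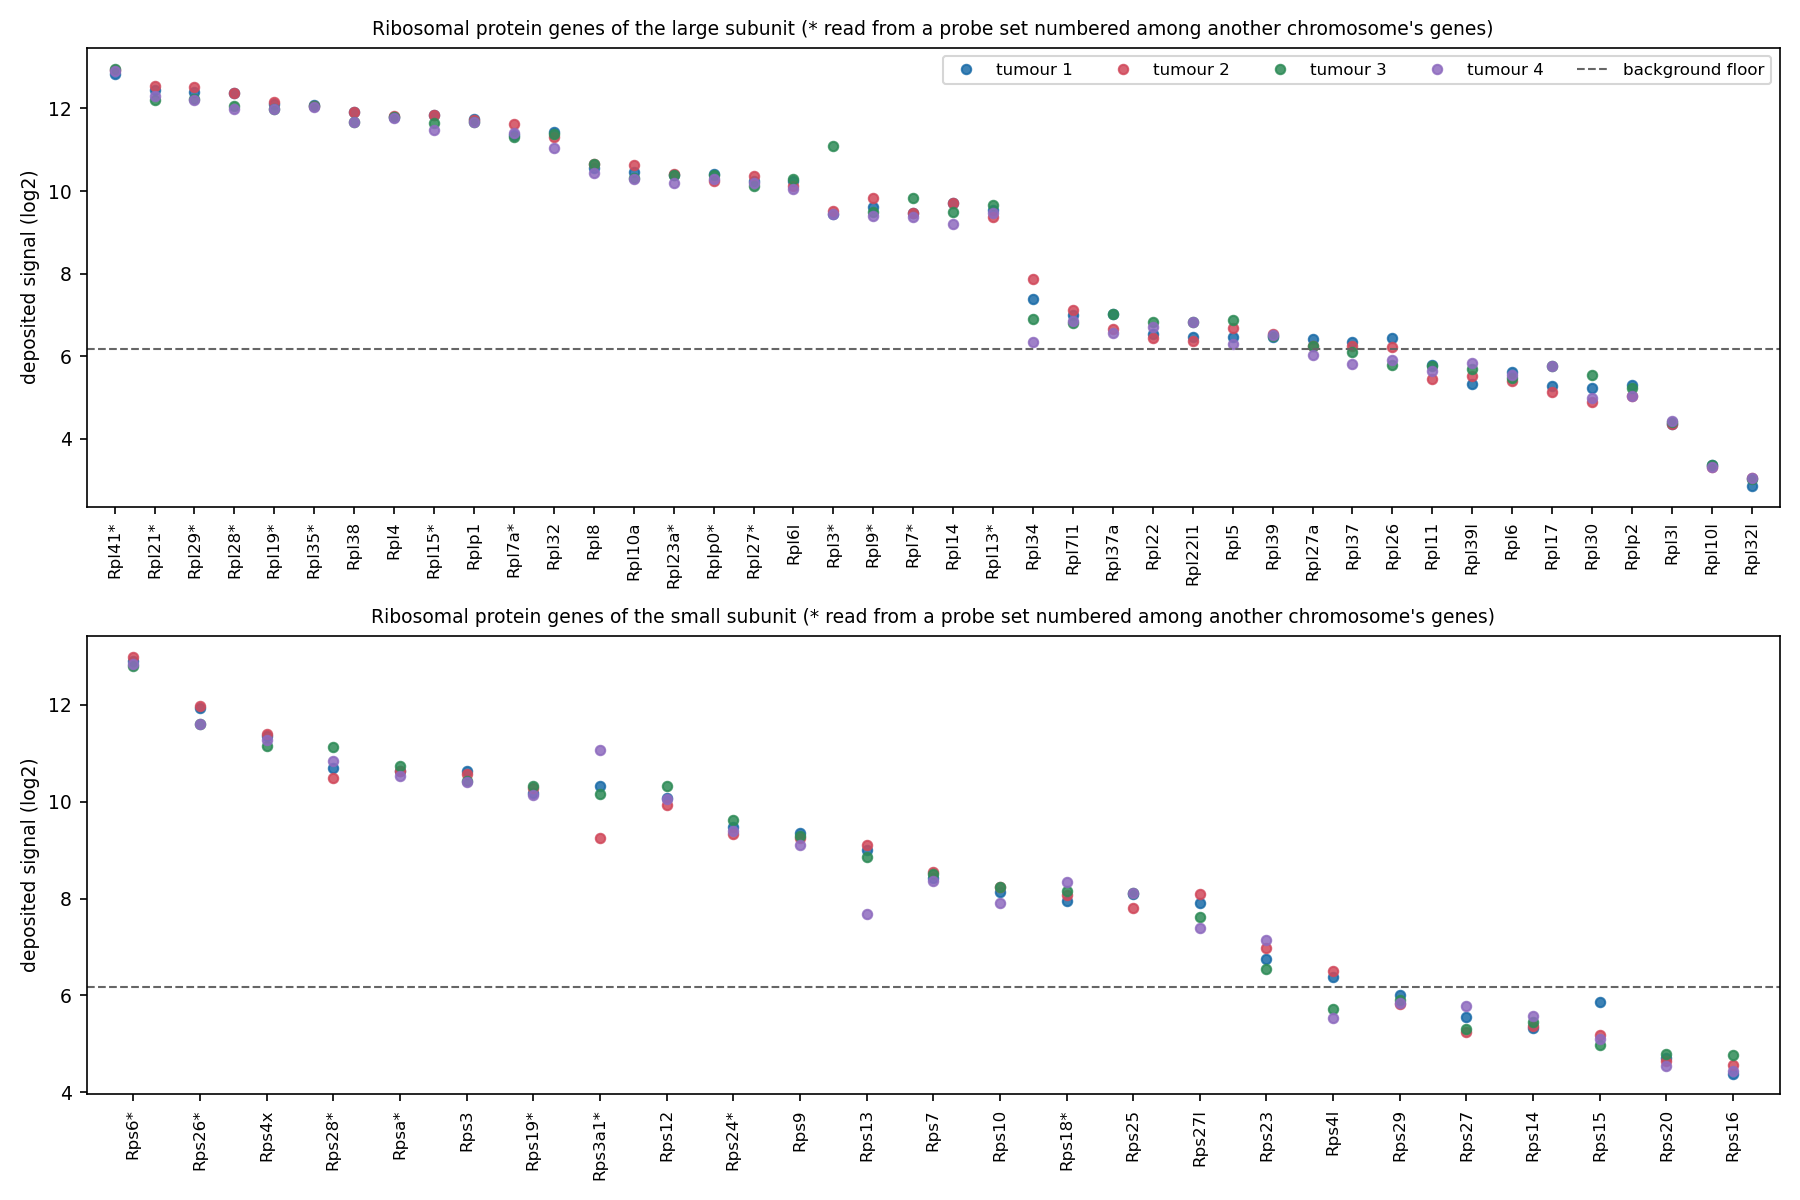
Deposited signal (log2) of the 67 ribosomal protein genes in the 4 tumours, one column per gene with the highest mean on the left, large subunit above and small subunit below; the dashed line is the background floor of 6.17. Stars mark the 23 genes read from a probe set numbered among another chromosome's genes, 18 genes have their mean under the line, and the 4 points of most genes nearly coincide.

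Which probe set was read mattered more for these genes than for most. Probe set numbers on this array run along the chromosomes: 98.9% of the 23325 probe sets that could be placed had a number among genes of their own gene's chromosome, judged by the 10 listed neighbours on each side. The most common chromosome of these 20 neighbours was taken, with no least share. A probe set whose neighbours were most often of another chromosome is called away-placed here, and 1.07% of all were. For some ribosomal protein sets few neighbours agreed: 9 of 20 for the brightest sets of Rpl35 and Rps18, and 8 for that of Rpl7. It was 11 and 8 for the away-placed sets of Rps24 and 7 for the second set of Rpl4. The place of these sets is thus uncertain. Of the 108 ribosomal protein probe sets, 40 were away-placed. Some of these share identical values, such as 6 of the 8 sets for Rps12, and counted once they were 33. What lies at those places is not stated in the annotation. The away-placed sets were bright, with a median of 10.23 and 39 of 40 above the floor. The 68 at the gene's own place had a median of 6.40, and 36 passed. Of the 67 genes, 23 were read from an away-placed set, and all 23 were detected. Of the 44 read at their own place, 26 were. The median of the means was 10.64 over the 23 genes read away and 8.56 over the 26 detected at their own place. A gene with sets of both kinds was read away only if that set was the brighter. Part of these differences in level and detection thus follows from the choice of set.

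The readings of one gene often lay far apart. Of 25 ribosomal protein genes with several probe sets, 18 had sets whose means differed by at least 3 log2 units, where 23.4% of 1082 such genes on the array did. For 21 genes there was a set of each kind, and the away-placed one was brighter in 19. In the 9 where both passed the floor it was brighter in 7, and the median difference was 2.14. The probes differ between sets, so these differences compare readings and not transcript levels. Rps26, a small-subunit protein mutated in Diamond-Blackfan anaemia, an inherited failure of red cell production, read 11.78 away and 3.10 at its own place. Rpl19, at the rim of the peptide exit tunnel, read 12.06 away and 5.56 at its own place. Rplp1, an acidic protein of the stalk that recruits elongation factors, went the other way, at 11.70 at its own place and 7.56 away. In 12 of the 21 genes the own-place reading was under the floor.

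**Figure D2:**
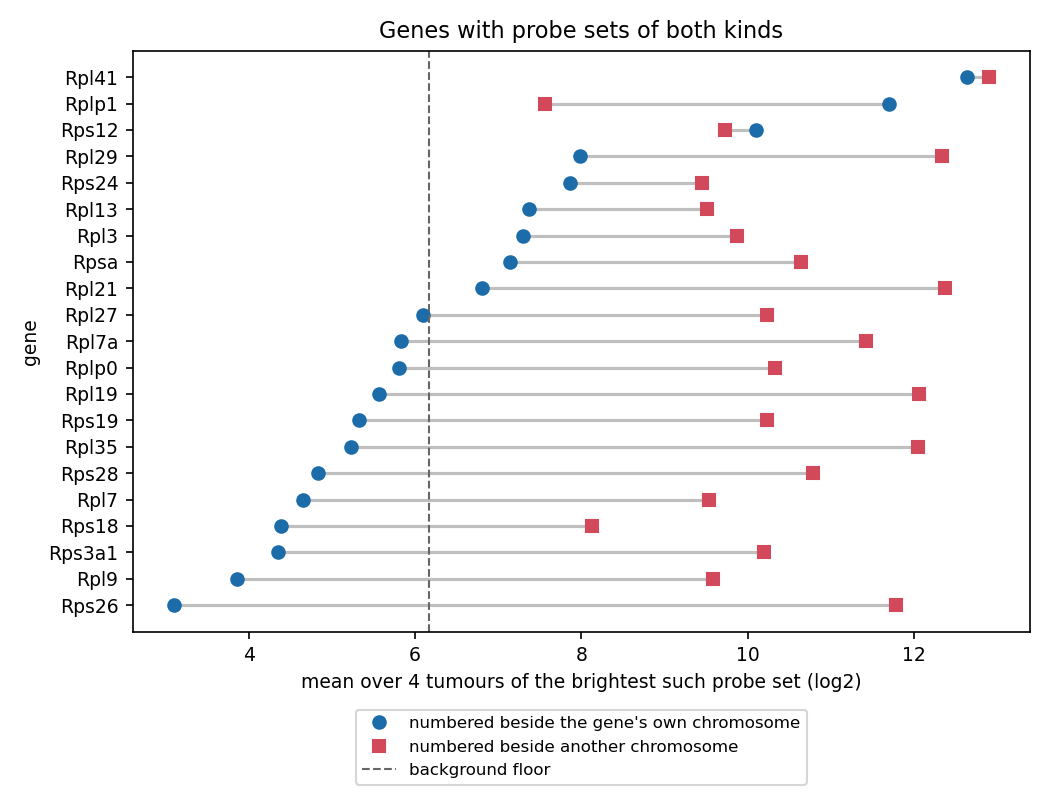
Mean signal over the 4 tumours (log2) of the brightest own-place probe set (circles) and the brightest away-placed one (squares) for the 21 genes with both; the dashed line is the floor. In 19 genes the square lies to the right, and in 12 the circle lies left of the floor.

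The 18 genes under the floor were all read at their own place. They include 13 genes of the standard ribosome, Rpl6, Rpl11, Rpl17, Rpl26, Rpl30, Rpl37, Rplp2, Rps14, Rps15, Rps16, Rps20, Rps27 and Rps29, with means from 4.54 for Rps16 to 6.13 for Rpl37. Their proteins belong to the ribosome of every cell, and whether these probe sets report the transcript was not tested. Of the 13, 5 passed the floor when probe sets listed with several genes were let in: Rpl26 (mean 11.03), Rpl30 (10.78), Rplp2 (11.02), Rps16 (11.04) and Rps27 (9.47). The other 8 stayed under it. The other 5 were Rpl3l, Rpl10l, Rpl39l, Rpl32l and Rps4l. Rpl3l, the paralogue that replaces Rpl3 in heart and skeletal muscle, measured 4.35, 4.35, 4.40 and 4.42 in tumours 1 to 4. Rpl10l and Rpl39l, which are best known from the testis, had means of 3.34 and 5.59. Rpl32l ran from 2.86 to 3.05, the lowest mean of the 67, and Rps4l, which RefSeq lists as a transcribed pseudogene, had a mean of 6.04. Just above and below the floor lay Rpl27a (6.24) and Rpl37 (6.13).

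Of the 67 genes, 65 are protein-coding in RefSeq, and the other 2, Rpl6l and Rps4l, are pseudogenes there. A further 12 ribosomal protein genes share their probe sets with other genes and were not read as single genes, among them Rpl12, Rpl23, Rpl31, Rpl35a, Rpl36 and Rps2, and for 11 of these 12 a shared set passed the floor. Fau, which encodes a fusion from which the small-subunit protein eS30 is cut, does not match by symbol. It measured 12.18, 12.15, 12.04 and 11.80 in tumours 1 to 4.

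The TOP tract was looked for at the annotated starts in the RefSeq promoter table, which held 64 ribosomal protein genes, measured or not. The tract was taken as a C followed by at least 4 pyrimidines (C or T) on the gene's strand. Read from an annotated start on, it was found in 14 of the 64, or 21.9%, where 3.01% of 27025 genes in the table had it. Starts with further pyrimidines directly before them were counted too. Of the 69 mitochondrial ribosomal protein genes in the table, 0 had it there, and of 33 translation factor genes 2 did. Within 10 bases of the start it was found in 40 of 64 (62.5%) against 34.4% of all genes, 44.9% of the mitochondrial ribosomal protein genes and 33.3% of the translation factor genes. The starts below show how the tract is placed in genes described further on. Each is the sense strand of GRCm38.p6, 15 bases before and 15 from the start, with the tract bases from the start on in capitals.
Rps6 at chr4:86857353-86857382, minus strand: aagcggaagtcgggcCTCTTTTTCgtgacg
Rpl15 at chr14:18270972-18271001, minus strand: gtgggagaaagccttCTTCCTTTCCTCTgg
Rpl35 at chr2:39005117-39005146, minus strand: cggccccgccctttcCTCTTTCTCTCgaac
Rpl38 at chr11:114668565-114668594, plus strand: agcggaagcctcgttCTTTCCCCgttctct
Rps10 at chr17:27635230-27635259, minus strand: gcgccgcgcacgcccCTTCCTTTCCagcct
Rpl4 at chr9:64173372-64173401, plus strand: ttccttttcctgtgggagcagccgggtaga
Rps3a1 at chr3:86142654-86142683, minus strand: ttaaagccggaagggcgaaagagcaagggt
In the first 5 a tract can be read from the start on, and pyrimidines also lie directly before the start. Rpl4 has its run of pyrimidines only upstream of the annotated start, and Rps3a1 has no tract in this window. Annotated starts can be some bases off, so no match says only that the letters are not there. The 8 detected genes with a tract at the start had a median range over the tumours of 0.35 and the 32 without one of 0.31.

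Most ribosomal protein genes differed little between the tumours. The range over the tumours, highest minus lowest, had a median of 0.32 log2 units in the 49 detected genes, against 0.41 over all detected genes. It was under 0.5 in 40 of the 49 (81.6%), where 65.0% of detected genes were. Bright genes as a whole varied less: among the brightest group, the 28 ribosomal protein genes had a median range of 0.25 and the other genes 0.37. The median was 0.32 in both subunits, 0.34 for the genes read at their own place and 0.30 for those read away. The median SD over the tumours was 0.15, against 0.19 in all detected genes.

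The narrowest genes were of the large subunit. Rpl4, which lines the peptide exit tunnel, measured 11.79, 11.81, 11.79 and 11.76 in tumours 1 to 4. Its other own-place set, also above the floor, measured 8.73, 8.74, 9.22 and 9.25, so the narrow range of Rpl4 belongs to its brightest set; the range of Rpl4 was 0.25 with the mean of both. Rpl35, at the rim of that tunnel, measured 12.08, 12.06, 12.05 and 12.03 from an away-placed set. Rpl39, inside the tunnel, measured 6.48, 6.54, 6.48 and 6.51, close to the floor of 6.17, so its narrow range says less about the transcript. In these 3 genes the tumours lay within 0.07 log2 units of each other. Rplp1 ran from 11.66 to 11.74 at its own place, and its dimmer away-placed set had a range of 0.35. Rpl41, the smallest ribosomal protein, ran from 12.82 to 12.96 by an away-placed set. The brightest own-place set of Rpl41 had a range of 0.08.

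**Figure D3:**
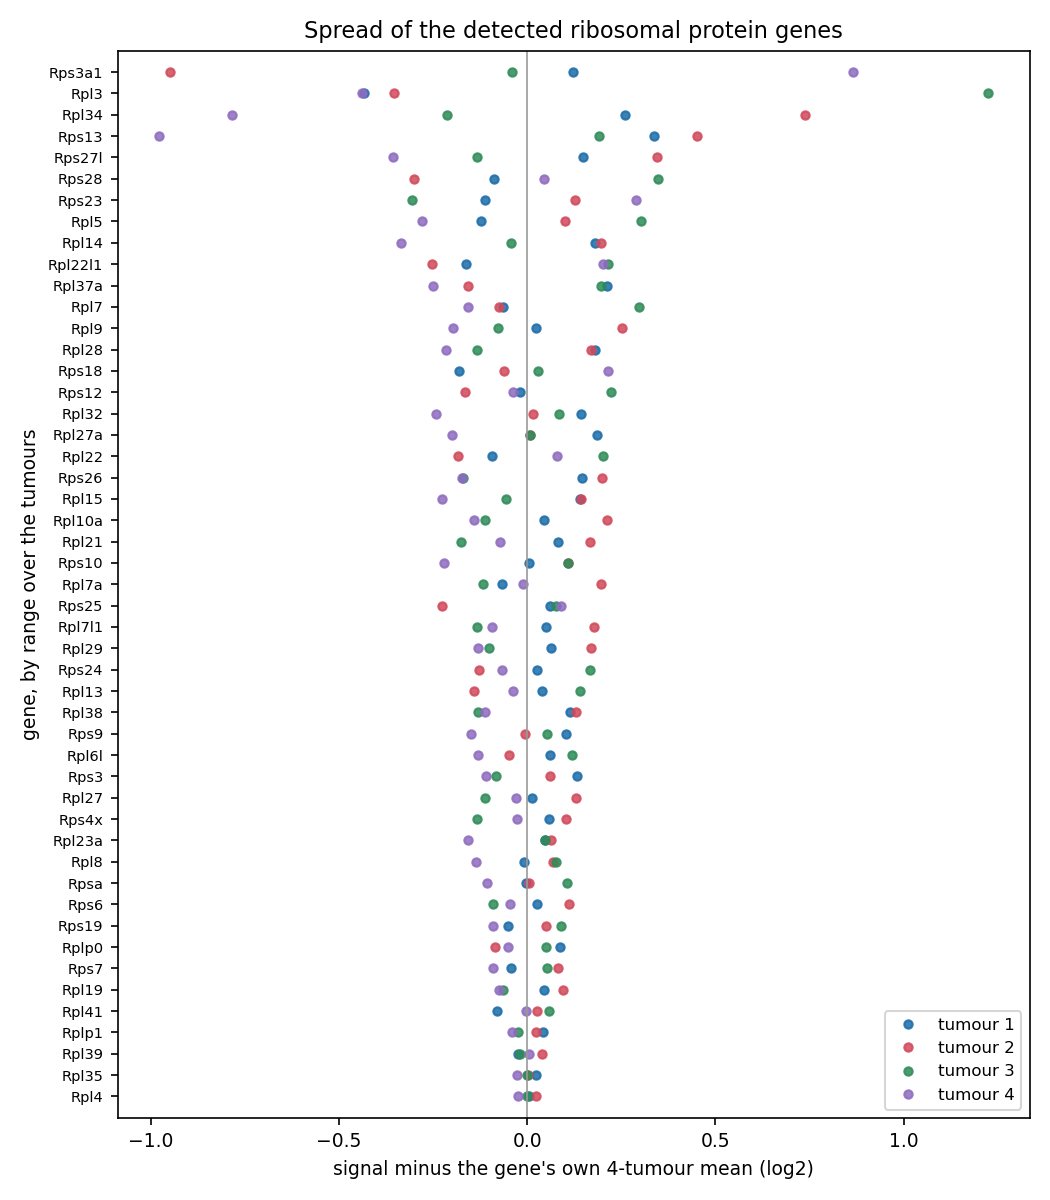
Signal of each tumour minus the gene's own 4-tumour mean (log2) for the 49 detected ribosomal protein genes, ordered by range with the widest on top. Rps3a1, Rpl3, Rpl34 and Rps13 span more than 1 log2 unit, and the genes at the bottom span under 0.1.

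A range of at least 1 log2 unit (2-fold) was reached by 4 of the 49 detected genes (8.16%), where 4.26% of all detected genes reached it. Rps3a1, a small-subunit protein near the mRNA exit channel, measured 10.32, 9.25, 10.16 and 11.06 in tumours 1 to 4, with a range of 1.81. Tumour 4 was the highest and tumour 2 the lowest. This reading came from a set placed among genes of chromosome 13, while Rps3a1 lies on chromosome 3. Its own-place set was under the floor, with a mean of 4.35 and a range of 0.34. The range of Rps3a1 was 0.96 with the mean of its probe sets and 0.91 without tumour 2.

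Rpl3, a large-subunit protein close to the peptidyl transferase centre, measured 9.44, 9.52, 11.10 and 9.44. Tumour 3 stood above the other 3, which lay within 0.08 of each other. The set is placed among genes of the X chromosome, while Rpl3 lies on chromosome 15. The brighter of its own-place sets measured 7.49, 7.19, 7.19 and 7.35, with tumours 2 and 3 lowest and a range of 0.30, so the high value of tumour 3 was not seen there. The range of Rpl3 was 0.77 with the mean of its probe sets and 0.08 without tumour 3. Xist, which coats the silenced X, was high in tumour 4 (10.13) and at 3.89 to 3.95 in the others. Whether X-linked differences have a part in the Rpl3 reading was not tested.

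The other 2 were read at their own place and had 1 probe set each. Rpl34, of the large subunit, measured 7.38, 7.86, 6.91 and 6.34, with a range of 1.52, and no tumour stood alone. The range of Rpl34 fell to 0.30 when probe sets listed with several genes were let in, since a brighter one was then read, and was 0.95 without tumour 4. Rps13, of the small subunit, measured 8.998, 9.11, 8.85 and 7.69, with a range of 1.43. Tumours 1 to 3 lay close together there and tumour 4 lay below them, and the range of Rps13 was 0.26 without tumour 4. The next widest were Rps27l (0.70), Rps28 (0.65), Rps23 (0.60) and Rpl5 (0.58). The range of Rpl5 was 1.20 with probe sets of several genes. One tumour stood apart by Dixon's ratio, the gap to its neighbour over the whole range, in 3 of the 49 genes, where 3.83% of all detected genes passed the critical value. With only the own-place sets, 33 of 63 genes were detected and 4 had a range of at least 1: Rpl34 and Rps13 again, with Rpl29 and Rpl13. Rpl29 then measured 8.54, 6.98, 8.16 and 8.26, with tumour 2 low, where its away-placed set ran only from 12.21 to 12.51. Rpl13 measured 6.80, 7.17, 7.62 and 7.88 at its own place and between 9.37 and 9.65 away.

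In 9 genes both kinds of set passed the floor. The highest tumour was the same in 3 of the 9 and the lowest in 4. That count was not made over other genes of the array, so it is not read as a trait of these. Some of the orders rest on small ranges, at the own place and away 0.08 and 0.14 for Rpl41 and 0.13 and 0.21 for Rpsa. Rps12, Rpsa and Rps24 were highest in tumour 3 by both readings. Rpsa, also known as the laminin receptor precursor, measured 10.64, 10.65, 10.75 and 10.53 away and 7.20, 7.08, 7.21 and 7.07 at its own place. Rpl21 gave another order by each, with tumour 2 the highest away (12.54) and tumour 1 the highest at its own place (7.21).

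The tumours were then compared over the whole gene group. Tumour 4 was the lowest in 29 of the 49 genes, where 38.6% of all detected genes were lowest there. Tumour 1 was the lowest in 3 (7.51% of all), tumour 2 in 9 (17.8% of all) and tumour 3 in 8 (36.0% of all). Tumour 2 was the highest in 21 genes (26.9% of all), tumour 3 in 15 (11.0% of all), tumour 1 in 9 (46.6% of all) and tumour 4 in 4 (15.5% of all). Detected genes as a whole were thus offset between the arrays, by medians of 0.12, 0.04, -0.09 and -0.08 from the gene means.

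To take out that offset, each gene's deviation from its own mean was set against the median of detected genes of like level. The shift that remained was -0.07 ± 0.13 in tumour 1, -0.01 ± 0.24 in tumour 2, 0.10 ± 0.22 in tumour 3 and -0.01 ± 0.25 in tumour 4 (median ± SD over 49 genes). In tumour 3, 37 of 49 lay above genes of like level, against 12 of 49 in tumour 1. In tumours 2 and 4 it was 24 of 49 each. Over all detected genes 49.9% lay above in each tumour, as the reference is their median. With no offset taken out, the medians were 0.04, 0.06, 0.01 and -0.09, so tumour 2 was then the highest and tumours 1 and 2 changed sign.

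Both subunits had the same tumour highest and lowest. The large subunit was at -0.05, 0.01, 0.08 and -0.05 in tumours 1 to 4 over 31 genes, and the small subunit at -0.08, -0.03, 0.17 and 0.03 over 18. In tumour 3, 23 of 31 and 14 of 18 genes lay above genes of like level. Genes read at their own place (26) were at 0.13 in tumour 3 and those read away (23) at 0.10. Macrophage markers were low in that tumour, with a shift of -0.40 over 11 detected of 15, and 1 of the 11 above genes of like level. The summed level of all 15 was 100.5 in tumour 3 and 107.6 to 107.9 in the others, and Adgre1, Fcgr1, Mertk and Aif1 were under the floor. Fibroblast markers, 9 of 11 detected, were at 0.46 in tumour 1 and 0.14 in tumour 3, with summed levels from 73.6 in tumour 4 to 82.6 in tumour 1. The part of other cell types in the ribosomal protein shift was not tested. In bulk tumours, fewer cells of a type and less RNA per cell cannot be told apart.

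Genes were also grouped by role. Of the stalk proteins, Rplp0 ran from 10.25 to 10.42 and Rplp1 from 11.66 to 11.74, while Rplp2 was under the floor by its single-gene set and at 11.02 by a shared one. Of the 5S RNP, which carries the 5S RNA into the large subunit and binds Mdm2 when free, Rpl5 measured 6.46, 6.68, 6.88 and 6.30 and Rpl11 was under the floor at 5.67 ± 0.16 (SD, n = 4). Tumour 3 was the highest for Rpl5 and tumour 4 the lowest, both close to the floor. Of 8 measured proteins of the exit tunnel and its rim, 6 were detected, with a median range of 0.12. This median is over the brightest sets, which for Rpl19, Rpl23a and Rpl35 were away-placed. At their own place Rpl19 (5.56) and Rpl35 (5.23) were under the floor. By its other set Rpl4 had a range of 0.52. Of 5 measured proteins of mRNA entry and decoding, 4 were detected, with a median range of 0.32. Rps3, at the mRNA entry, ran from 10.40 in tumour 4 to 10.65 in tumour 1, and Rps23, at the decoding centre, from 6.55 in tumour 3 to 7.14 in tumour 4.

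Rps6, the protein that S6 kinase phosphorylates below mTORC1, measured 12.91, 13.00, 12.80 and 12.84, from a set placed among genes of chromosome 2 while Rps6 lies on chromosome 4. Its TOP tract covers 9 bases from the annotated start on, as printed above. Rpl15, whose tract covers 13 bases from the start on, ran from 11.48 in tumour 4 to 11.85 in tumours 1 and 2. Rpl38, which is known for its part in translating Hox mRNAs, measured 11.91, 11.92, 11.66 and 11.68. Rps10 ran from 7.91 in tumour 4 to 8.24. Of the 17 genes listed for Diamond-Blackfan anaemia in people, 14 were measured and 10 detected, with a median range of 0.31 and 0 of 10 with a range of 1. Rps19, the gene most often mutated in it, measured 10.18, 10.28, 10.32 and 10.14, from an away-placed set. At its own place Rps19 was under the floor.

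Some paralogues of ribosomal proteins can take the place of the standard protein. Of the paralogues listed, 3 of 7 measured were detected, where 40.5% of all genes were. Rpl22l1, the paralogue of Rpl22, measured 6.46, 6.37, 6.83 and 6.82, and Rpl22 itself 6.53, 6.44, 6.83 and 6.71. Both were higher in tumours 3 and 4 than in tumours 1 and 2, but lay close to the floor of 6.17. The medians of the background receptor genes were also higher in tumours 3 and 4 (4.10 in each) than in tumours 1 (3.85) and 2 (3.95). The part of background in the order of Rpl22 and Rpl22l1 was not tested. Rps27l, a paralogue of Rps27 that p53 induces, measured 7.90, 8.10, 7.62 and 7.40, with tumour 2 the highest. The p53 arm as listed, 6 of 8 measured genes detected, was at -0.22, 0.10, -0.04 and 0.15. It was highest in tumour 4, where Rps27l was lowest, and a role of p53 in the order of Rps27l was not tested. Rpl7l1, a relative of Rpl7 that acts in ribosome assembly, ran from 6.81 to 7.12. Rpl39 and Rps4x were the measured genes on the X chromosome. Rps4x measured 11.35, 11.40, 11.16 and 11.27, so tumour 4 lay inside the range of the others, as it did for Rpl39.

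The mitochondrial ribosomal proteins, which build the separate ribosome of mitochondria, varied more and in another pattern. Of 71 measured, 62 were detected, with a median range of 0.56, and 4 had a range of at least 1. Their shift was 0.03, 0.17, -0.02 and -0.16 in tumours 1 to 4, and 55 of 62 lay above genes of like level in tumour 2, against 8 of 62 in tumour 4. The widest were Mrpl52, from 7.71 to 8.83, Mrpl34, from 8.65 to 9.72, and Mrps30, from 5.93 to 6.97. The narrowest were Mrps28 (range 0.14) and Mrpl40 (0.20). Proliferation genes ordered the tumours alike, with 0.04, 0.27, -0.12 and -0.15 over 11 genes. Sympathoadrenal markers were lowest in tumour 2 (-0.22) and highest in tumour 4 (0.26). With 1 other tumour left out, proliferation genes ran from -0.0320 to -0.1926 in tumour 3 and from -0.0623 to -0.1911 in tumour 4, the smaller sizes both without tumour 2, and tumour 1 from -0.0120 to 0.1362. The mitochondrial list was at 0.1027 in tumour 2 without tumour 4 and at -0.0970 in tumour 4 without tumour 2. In tumours 1 and 3 it ran from -0.0147 to 0.0835 and from -0.0977 to 0.0265. The difference between these lists and the cytosolic ribosomal proteins was not tested.

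Translation factors stayed closer to the ribosomal proteins. All 39 measured were detected, with a median range of 0.38 and 0 of 39 with a range of 1. Their shift was -0.01, 0.04, 0.04 and -0.08 in tumours 1 to 4. Eef1a1, the elongation factor that brings tRNA to the ribosome, and Eef1b2, its exchange factor, were the narrowest, with ranges of 0.07 and 0.09. The widest were Eif5 (0.79), Eif2b2 (0.76) and Eif3m (0.74), all initiation factors, and each was highest in tumour 2. Chaperones and import factors of single ribosomal proteins were at -0.06, 0.16, -0.04 and -0.09 over 9 genes. Among them Ltv1, which escorts small-subunit precursors, ran from 7.16 in tumour 4 to 8.15 in tumour 2, Pdcd2l from 7.40 to 8.29 and Grwd1, the Rpl3 chaperone, from 6.74 to 7.26. Rrs1, which helps bring in the 5S RNP, had a range of 0.07. Grwd1 was highest in tumour 2, where Rpl3 was not, and a link between them was not tested. In the mTORC1 and LARP1 arm all 14 measured genes were detected and no tumour's shift passed 0.03 in size. Its widest genes were Rheb (0.63), Larp4 (0.61) and Eif4ebp1 (0.59), each highest in tumour 2, and Deptor had a range of 0.10.

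**Figure D4:**
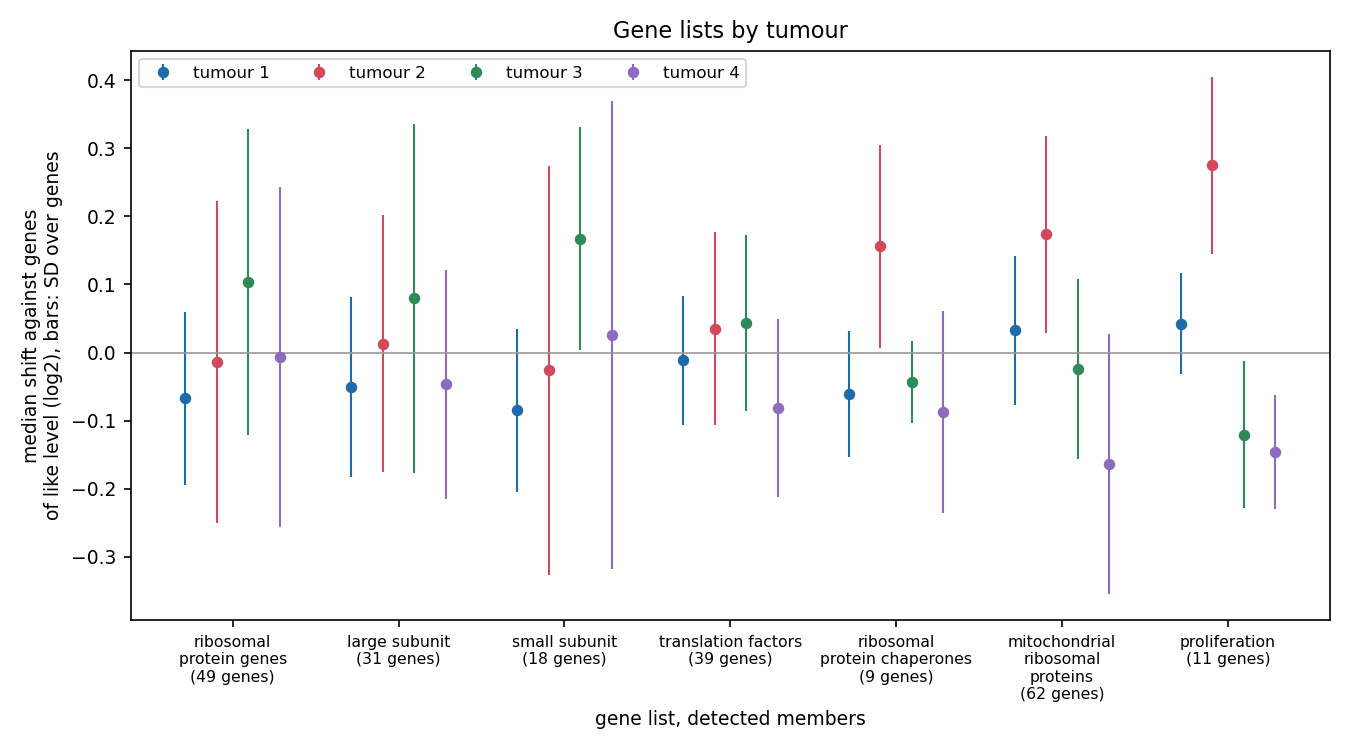
Median shift against genes of like level (log2) in each tumour for the ribosomal protein genes, each subunit and 4 related lists; points are medians over detected genes and bars the SD over those genes, which is not the error of the median. The ribosomal protein genes peak in tumour 3 at 0.10, while the mitochondrial ribosomal proteins peak in tumour 2 at 0.17.

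Many ribosomal protein genes carry small nucleolar RNAs in their introns, which guide the modification of ribosomal RNA and are released when the host intron is processed. RefSeq places 22 of them within the span of one of the 67 genes. The strand was not checked. Of these 13 were measured and 9 detected. Snora62 in Rpsa measured 8.15, 7.05, 8.13 and 7.28, with tumours 1 and 3 high and a range of 1.10. Snord16a in Rpl4 measured 8.18, 8.18, 7.64 and 7.21. Snord83b in Rpl3 measured 8.20, 7.77, 8.10 and 7.36. These 3 had the widest ranges of the 9. Snord72 in Rpl37 also had a wide range, 1.04, but both it and its host were under the floor.

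Tumour 4 was the lowest of the 4 in 7 of the 9, and tumour 2 in the other 2. The median shift of the 9 was 0.03, -0.16, 0.36 and -0.25 in tumours 1 to 4, and 8 of 9 lay above genes of like level in tumour 3, against 0 of 9 in tumour 4. Without tumour 3 the medians of the 9 were 0.1675 in tumour 1, -0.0379 in tumour 2 and -0.0924 in tumour 4. In tumour 3 they stayed between 0.2943 and 0.3744 with 1 other tumour left out. All 61 detected RNAs of these classes were at 0.39 in tumour 3 and -0.22 in tumour 4, close to the values of the 9. Their 9 hosts were at -0.09, -0.07, 0.15 and -0.02. Some hosts had a narrower range than the RNA inside them: Rpl4 had 0.05 by its brightest set and 0.52 by the other, where Snord16a had 0.97, and Rpsa had 0.21 where Snora62 had 1.10. Snord83b was not high in tumour 3 alone, as the away-placed Rpl3 reading was.

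**Figure D5:**
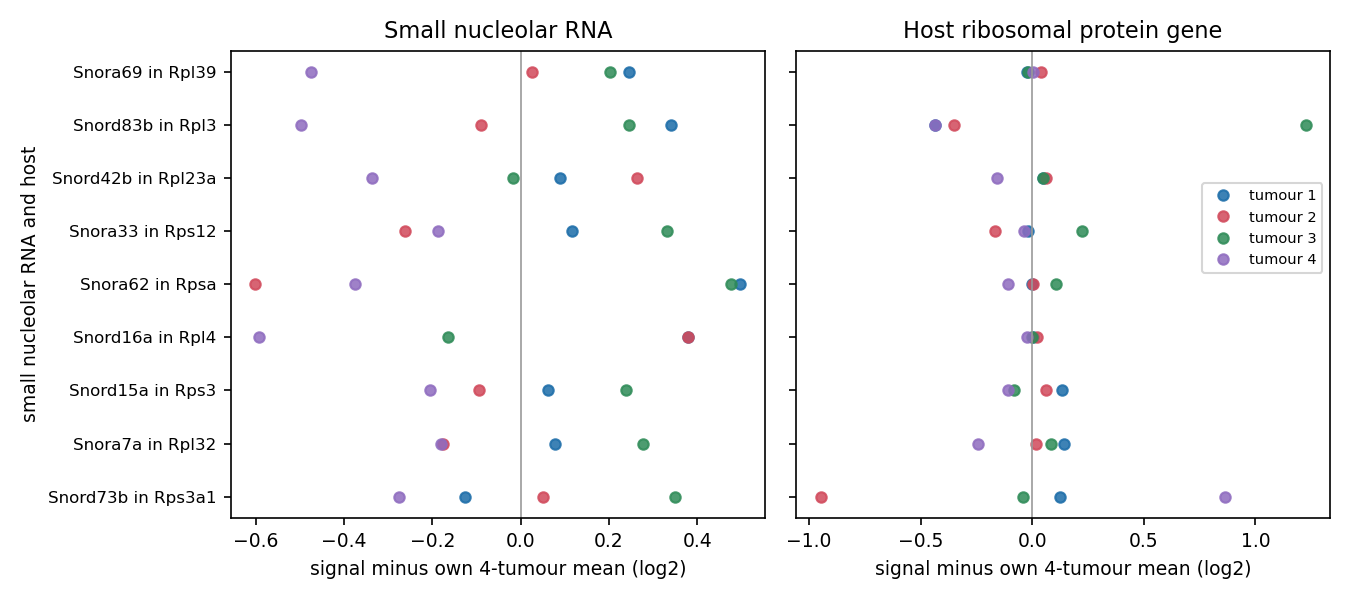
Signal minus own 4-tumour mean (log2) for the 9 detected small nucleolar RNAs (left) and their host ribosomal protein genes (right), one row per pair. Tumour 4 is the lowest for 7 of the 9 RNAs, while most hosts lie close to 0 in every tumour; Rpl3 and Rps3a1, both read from away-placed sets, are the exceptions.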

How the data were processed

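RNA of 4 tumours was measured on 1-colour Affymetrix arrays, labelled with biotin per the labels. The authors deposited log2 signals, 1 value per probe set and tumour. Per the submitters' processing notes they used RMA and Partek, without versions or settings. The log base is not stated, and log2 was taken from the range of the values (2.47 to 13.6). No source used here says how sequence shared with pseudogenes was treated.

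Of 41345 probe sets, 23521 were listed with 1 gene and used, 1814 with several and 16010 not listed. Symbols came from the platform annotation, updated by Entrez identifier (23328 matched) with the RefSeq table of GRCm38.p6. Shifts use 20 bins of mean level. Python 3.11.15, pandas 2.3.3 and numpy 2.4.6 were used, and the list and range steps were tested on simulated data. The genes named were Rpl3, those under the floor, those with a range of 1 or more, the 8 widest and 5 narrowest, those past Dixon's value, members of the role groups, the 4 small nucleolar RNAs with the widest ranges, and per comparison list the 3 widest and 2 narrowest. Other members named for their probe sets, starts or roles were chosen after their values were seen. The members, lists and rules were chosen with earlier results of these data known. The number of arrays limits the precision. Alternatives covered probe set choice, floor, normalization, reference, member set and each tumour left out. Protein sequences were not used here.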

Additional observations from a re-analysis of the deposited data

Results flagged for a closer look

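In 6 genes, 4 of them cytosolic ribosomal protein genes, 1 tumour stood apart by Dixon's ratio over the 4 tumours. Chance alone passes it in about 5% of groups of 4, and 3.83% of all detected genes passed it. Of the 49 detected ribosomal protein genes, 3 did. Rpl3 (ratio 0.95) was high in tumour 3, by the away-placed set alone. Rpl23a, at the rim of the peptide exit tunnel, was low in tumour 4 (ratio 0.93), at 10.18 against 10.39 to 10.40, a gap of little size, from an away-placed set. Rps25, which viral internal ribosome entry sites need, was low in tumour 2 (ratio 0.91), at 7.801 against 8.09 to 8.11. Rpl32l was low in tumour 1 (ratio 0.92), at 2.86 against 3.03 to 3.05, all far under the floor. Among related genes, Bccip, the Rpl23 chaperone, was high in tumour 2 (ratio 0.87), at 6.98 against 6.69 to 6.73, and Mtor, the kinase of mTORC1, was high in tumour 1 (ratio 0.84), at 8.54 against 8.37, 8.39 and 8.399.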

How the results depend on the processing

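The shift of the ribosomal protein genes kept its sign in tumour 1 (-0.08 to -0.03) and tumour 3 (0.07 to 0.16) under every alternative run but one, and lay between -0.03 and 0.02 in tumour 2 and -0.04 and 0.03 in tumour 4. The exception was the deviation with no reference, at 0.0411, 0.0612, 0.0083 and -0.0927 in tumours 1 to 4. Genes with a range of at least 1 numbered 4. They were 2 with the mean of a gene's probe sets and 2 without genes read from an away-placed set, where 26 genes were detected, and 2 to 4 with 1 tumour left out, the 2 without tumour 4. With 3 tumours a range is smaller by construction. The settings on away-placed sets were chosen after seeing the data. The TOP share was 62.5% within 10 bases of the start and 21.9% at the start alone. In the mTORC1 and LARP1 arm tumour 3 was at -0.03 under a floor set by the 99th percentile, and tumour 4 lay between -0.0151 and 0.003 with 1 other tumour left out. The cause was not tested. Of 411 list values and counts recomputed under alternatives 12 were marked as moved, and of 902 ranges of single ribosomal protein genes 72 were. A list shift was marked where it changed by more than its SD over the tumours. A count was marked where it changed by more than a fixed ratio. A range was marked where it changed by more than 0.15, the median SD of the detected ribosomal protein genes. The TOP share at the start alone was marked without such a rule. No paired analysis was possible because there is 1 group.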
